A study of Mus musculus with 91 samples.

Results

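The 10 genes of Toll-like receptor sensing and signaling were followed through 91 single bone marrow progenitors of the mouse. They were taken by symbol from a table of 23956 genes, and all 10 were found: the receptor genes Tlr2, Tlr4, Tlr6, Tlr7 and Tlr9, the accessory receptor genes Cd14 and Ly96, and the signaling genes Myd88, Irak4 and Traf6. The cells came from C57BL/6 mice of the genotype Gfi1-R412X/- Irf8+/-, that is, R412X opposite a minus allele at Gfi1, and 1 minus and 1 plus allele at Irf8. These alleles were common to both populations, and cells of wild-type mice were not analysed here. After enrichment for CD117, the sort took Lineage- Sca-1- cells that were CD117+, CD34+ and CD16/32 high. The labels call 46 cells GMP (granulocyte-monocyte progenitors) and 45 cells CD11b+ GMP-P, and they give no age and name no animal. Each population was therefore treated as 1 sample, no test between populations was made, and spreads below are over cells.

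Toll-like receptors are membrane proteins that bind molecules of microbes. TLR2 pairs with TLR1 or TLR6 at the cell surface to bind bacterial lipopeptides. TLR4 binds bacterial lipopolysaccharide together with MD-2, the product of Ly96, after CD14 has handed the lipid over. TLR7 binds RNA and TLR9 binds DNA inside endosomes. All of these receptors can use the adaptor MyD88, which assembles the kinase IRAK4 and its partners, and the ubiquitin ligase TRAF6 then passes the signal on to NF-kB. In bone marrow, progenitors as well as mature myeloid cells are known to carry such receptors.

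Myd88 and Irak4 were found in more cells than any receptor gene, and Traf6 acts right after them, so the 250 bases before the start of these 3 genes are shown here. They come from RefSeq on build GRCm38.p6, in which 6 of the 10 genes matched the promoter table, and run 5' to 3' on the gene's strand. The genotype alters GFI1 and IRF8, and PU.1 is a partner of IRF8, so 4 short motifs tied to these factors were searched on both strands and stand in capitals. They are the PU box GAGGAA, the GFI1 core AATCAC, an ETS-IRF composite (GGAA, any 2 bases, GAAA) and an IRF pair (GAAA, any 2 bases, GAAA).
Myd88: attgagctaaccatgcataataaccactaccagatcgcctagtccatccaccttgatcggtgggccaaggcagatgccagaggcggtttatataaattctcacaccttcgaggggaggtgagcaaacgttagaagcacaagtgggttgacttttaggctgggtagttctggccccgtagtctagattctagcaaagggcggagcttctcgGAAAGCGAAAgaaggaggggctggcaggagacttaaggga
Irak4: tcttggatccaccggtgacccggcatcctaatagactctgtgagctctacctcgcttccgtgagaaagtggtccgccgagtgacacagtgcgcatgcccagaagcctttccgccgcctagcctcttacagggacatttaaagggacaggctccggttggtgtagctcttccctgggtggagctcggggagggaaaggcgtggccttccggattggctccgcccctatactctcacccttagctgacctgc
Traf6: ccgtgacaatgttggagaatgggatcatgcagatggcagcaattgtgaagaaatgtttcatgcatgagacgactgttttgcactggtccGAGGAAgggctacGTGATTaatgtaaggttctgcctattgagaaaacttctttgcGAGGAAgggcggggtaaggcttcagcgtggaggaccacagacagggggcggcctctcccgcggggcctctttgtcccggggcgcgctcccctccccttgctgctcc
The Myd88 window (chr9:119340019-119340268, minus strand) held 1 IRF pair, which is in 2.98% of 32851 promoter windows of this length. The Traf6 window (chr2:101678170-101678419, plus strand) held 2 PU boxes and 1 GFI1 core, motifs that are in 23.3% and 9.14% of windows. The Irak4 window (chr15:94543410-94543659, plus strand) held none of the 4. Among the other members with a window, 1 of the 2 Tlr6 windows held 2 IRF pairs, the Tlr9 window held 1 PU box and the Tlr2 window held none. The composite, present in 2.3% of all windows, was in none of the 7 member windows. The capitals mark letters only and say nothing of binding in these cells.

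All levels are log2(TPM + 1), where TPM (transcript abundance) is scaled for transcript length and to the same total in each cell. The 50 highest genes of a cell held a median of 26.9% of that total in GMP and 51.2% in CD11b+ GMP-P. This leaves less of the fixed total for all other genes in CD11b+ GMP-P, and its part in the differences below was not tested. A value listed at 0 can be a transcript that was missed, and TPM keeps no record of depth. GMP cells had 2796 to 6383 genes above 0, with a median of 5461, and CD11b+ GMP-P cells had 2435 to 6161, with a median of 4147. Actb, Gapdh and Eef1a1 were above 0 in every cell. Transcripts of several gate genes did not match the gates, which act on surface protein, and protein was not measured here. Kit, which encodes CD117, averaged 3.65 ± 2.84 in GMP but 0.90 ± 1.55 in CD11b+ GMP-P, where 21 of 45 cells were above 0. Cd34 averaged 7.22 ± 2.80 and 2.55 ± 3.28, with 42 and 32 cells above 0. Ly6a encodes Sca-1 and had means of 5.51 (GMP) and 5.74 (CD11b+ GMP-P) although the sort was Sca-1-. Itgam, which encodes CD11b, averaged 0.54 and 3.68. The genes of CD16/32 were found in most cells: Fcgr3 averaged 9.18 ± 1.70 and 6.89 ± 3.30, above 0 in 46 and 42 cells, and Fcgr2b was above 0 in 38 and 32.

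Each difference subtracts the GMP mean from the CD11b+ GMP-P mean, and a size of 1 or more was called lower or higher. Of the 10 genes, 8 reached 10% of cells above 0 in one population or the other and are called measured, while Tlr7 and Tlr9 did not. Of those 8, 1 was lower in CD11b+ GMP-P (Irak4), 0 were higher, and the other 7 stayed within 1 of GMP. Among all 10030 measured genes, 29.9% were lower and 2.45% higher by that size (32.4% in either direction), so 1 of 8 is no more than the background. The median difference of the 8 was -0.28, against -0.50 for all measured genes. The members that counted as measured could do so through either population.

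**Figure D1:**
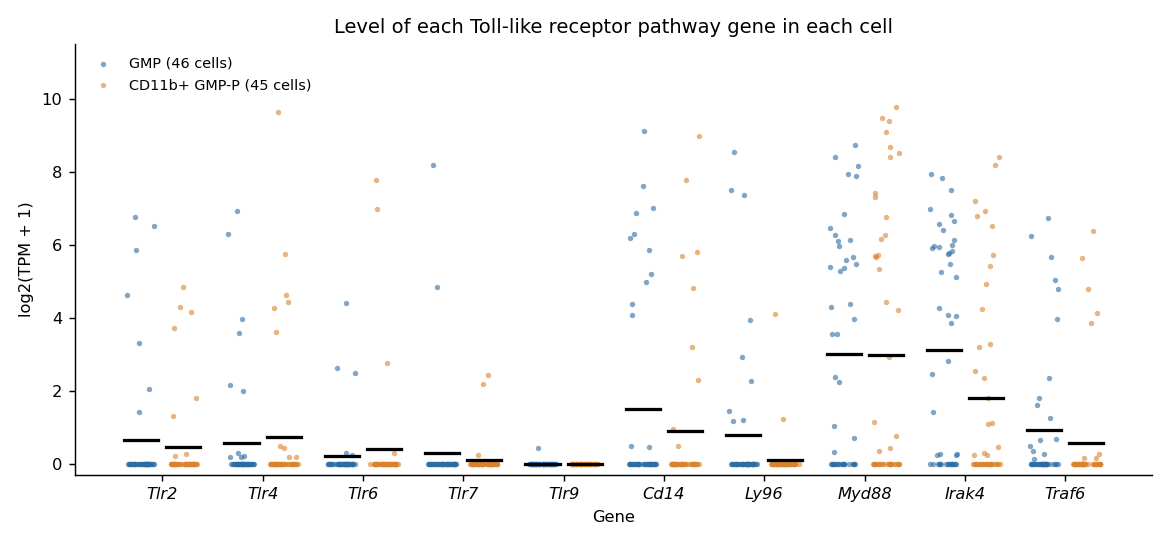
Level of each of the 10 genes in each cell (y axis, log2(TPM + 1)) with 46 cells of GMP in blue and 45 of CD11b+ GMP-P in orange, 1 point per cell with sideways scatter only to separate points, and black bars for the mean. Myd88 and Irak4 have means near 3 in GMP, while most cells lie at 0 for every receptor gene.

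By mean level in GMP, Irak4 (3.13) and Myd88 (3.0) came first, followed by Cd14 (1.49), Traf6 (0.91), Ly96 (0.79), Tlr2 (0.66), Tlr4 (0.56), Tlr7 (0.28), Tlr6 (0.22) and Tlr9 (0.0092). In CD11b+ GMP-P the order was Myd88 (2.98), Irak4 (1.8), Cd14 (0.89), Tlr4 (0.75), Traf6 (0.56), Tlr2 (0.46), Tlr6 (0.40), Ly96 (0.12), Tlr7 (0.11) and Tlr9 (0). No neighbours in either order differed by as much as the SD over cells of the higher of the 2. The adaptor and the first kinase of the pathway were thus at the top in both populations, and the endosomal receptors were near the bottom.

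Among the surface receptor genes Tlr2, Tlr4 and Tlr6, Tlr4 was found most often and in the same number of cells of each population. Tlr4 ranged in GMP from 0 through a median of 0 to 6.92, and in CD11b+ GMP-P from 0 through a median of 0 to 9.65. Transcripts were found in 21.7% of GMP (10 of 46, 95% Clopper-Pearson interval 10.9 to 36.4) and in 10 of 45 cells of CD11b+ GMP-P (22.2%, 11.2 to 37.1). The intervals here and below cover counting error only. Tlr4 means were 0.56 ± 1.57 (SD, n = 46 cells) and 0.75 ± 1.99 (n = 45). A single CD11b+ GMP-P cell, at 800 TPM, held 86.2% of all Tlr4 transcript units of that population. On the scale of mean TPM, Tlr4 was therefore at 20.6 in CD11b+ GMP-P against 5.01 in GMP (log2 ratio 1.85), and at 2.90 against 2.44 without the highest cell of each population (log2 ratio 0.18).

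Tlr2 was rarer when all values above 0 counted, and its positive cells were lower in CD11b+ GMP-P. It ranged from 0 to 6.77 in GMP and from 0 to 4.85 in CD11b+ GMP-P, with medians of 0. Values above 0 were found in 7 cells of GMP (15.2%, 6.34 to 28.9) and 8 of CD11b+ GMP-P (17.8%, 8.0 to 32.1), with means of 0.66 ± 1.77 and 0.46 ± 1.25. The shares overlapped almost entirely. Among positive cells alone, the level was 4.37 ± 2.16 in the 7 GMP cells and 2.58 ± 1.89 in the 8 CD11b+ GMP-P cells, and the 2 sets of cells overlapped. The highest Tlr2 cell stood at 108 TPM in GMP and at 27.8 TPM in CD11b+ GMP-P.

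Tlr6, the partner of TLR2 for some lipopeptides, was found in 5 cells of GMP (10.9%, 3.62 to 23.6) and 4 of CD11b+ GMP-P (8.89%, 2.48 to 21.2). It ranged from 0 to 4.41 in GMP and from 0 to 7.77 in CD11b+ GMP-P, and both medians were 0. Means were 0.22 ± 0.82 and 0.40 ± 1.58. At 10 TPM or more, it was left in 1 GMP cell and 2 CD11b+ GMP-P cells. Tlr6 and its paralog Tlr1 share sequence: 16.7% of the 31-base words of the longest Tlr6 coding transcript in GENCODE M21 also occur in Tlr1, so their reads could be split between the genes. Tlr1, the other partner of TLR2, was above 0 in 18 GMP cells and 6 CD11b+ GMP-P cells, at means of 1.54 ± 2.61 and 0.37 ± 1.39. Only 2 GMP cells and no CD11b+ GMP-P cell were above 0 for both Tlr6 and Tlr1.

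The endosomal receptor genes were close to undetected. Tlr7 was above 0 in 2 GMP cells, at 4.85 and 8.18, and in 3 CD11b+ GMP-P cells, at 0.24, 2.18 and 2.44. The GMP pair exceeded all 3 CD11b+ GMP-P cells, but 44 and 42 cells were at 0. Tlr9 was above 0 in 1 GMP cell, at 0.42 or 0.34 TPM. In CD11b+ GMP-P it was listed at 0 in all 45 cells. Taking 3 cells of 45 as the limit that a count of 0 allows, up to 6.67% of cells could have had a value above 0, and the Clopper-Pearson limit was 7.87%. Neither limit covers transcripts that were missed. No cell held both Tlr7 and Tlr9.

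Cd14, the co-receptor that delivers lipopolysaccharide, was above 0 in more GMP cells than any of the 5 receptor genes, and in 1 CD11b+ GMP-P cell fewer than Tlr4. It ranged from 0 to 9.11 in GMP and from 0 to 8.99 in CD11b+ GMP-P, both with medians of 0. The share with Cd14 was 28.3% in GMP (13 cells, 16 to 43.5) and 20% in CD11b+ GMP-P (9 cells, 9.58 to 34.6), and 11 and 5 cells were at 10 TPM or more. Means were 1.49 ± 2.73 and 0.89 ± 2.19, a difference of -0.60. Levels in positive cells were 5.27 ± 2.52 and 4.44 ± 2.94 and overlapped.

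Ly96, which encodes the lipopolysaccharide-binding partner of TLR4, was the accessory gene with the larger gap in share. It was above 0 in 9 of 46 GMP cells (19.6%, 9.36 to 33.9) and in 2 of 45 CD11b+ GMP-P cells (4.44%, 0.54 to 15.2). The 9 GMP cells ranged from 1.16 to 8.54, with a median of 2.92, and the 2 CD11b+ GMP-P cells were at 1.23 and 4.09. Means were 0.79 ± 2.05 and 0.12 ± 0.63, a difference of -0.67. The GMP cells with Ly96 also had more genes above 0, a median of 5658 against 5140 in those without. Among cells with a like number of genes (3947 to 5645, the bounds being the GMP 5th and the CD11b+ GMP-P 95th percentile), Ly96 was found in 11.54% of GMP (3 of 26) and 9.52% of CD11b+ GMP-P (2 of 21). Within that range the difference was 0.040. The range kept 3 of the 9 GMP cells with Ly96 and left out the highest of them, which had 5658 genes. Gene number and the kinds of cells kept changed together, as described for Irak4 below, and the part of either was not tested.

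**Figure D2:**
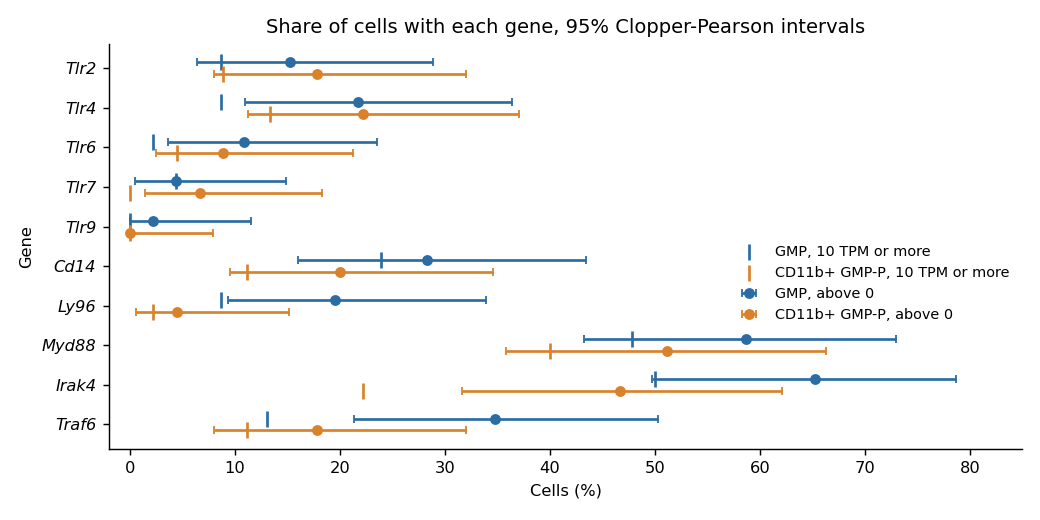
Share of cells above 0 for each gene (points, x axis in percent) with 95% Clopper-Pearson intervals, and share at 10 TPM or more (vertical ticks), for GMP (blue) and CD11b+ GMP-P (orange). The shares of Tlr4 are 21.7% and 22.2%, while those of Ly96 are 19.6% and 4.44%.

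Myd88, the adaptor common to these receptors, kept nearly the same mean in both populations. It ranged in GMP from 0 through a median of 2.31 to 8.73, and in CD11b+ GMP-P from 0 through a median of 0.34 to 9.79. Means were 3.0 ± 3.10 and 2.98 ± 3.63, a difference of -0.028, and the cells overlapped over almost the whole range. The share with Myd88 was 58.7% in GMP (27 cells, 43.2 to 73) and 51.1% in CD11b+ GMP-P (23 cells, 35.8 to 66.3). The 5133 commonly detected genes, found in 50% or more of one population's cells, had a median difference of -1.05, with 51.8% of them lower, 3.7% higher and 55.5% in either direction, and relative to them Myd88 stood 1.02 higher. The sign of the small difference was not stable: 5 of 8 alternative settings gave a value above 0, and the log2 ratio of mean TPM was 1.03 (105 TPM against 51.1). Of the 31-base words of Myd88, 10.1% occur in Acaa1a, and the libraries do not mark strand, so some reads could belong to either gene. The means of Acaa1a were 2.92 ± 2.82 (GMP) and 1.81 ± 2.86 (CD11b+ GMP-P). It was at 0 in 15 of the 23 CD11b+ GMP-P cells with Myd88.

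Irak4, the kinase recruited by MyD88, was the only one of the 8 measured members past the size of 1. It ranged in GMP from 0 through a median of 3.34 to 7.95, and in CD11b+ GMP-P from 0 through a median of 0 to 8.41. Means were 3.13 ± 2.98 and 1.8 ± 2.71, a difference of -1.33, which is -0.28 relative to the commonly detected genes. Irak4 was above 0 in 65.2% of GMP (30 of 46 cells, 49.8 to 78.6) and 46.7% of CD11b+ GMP-P (21 of 45 cells, 31.7 to 62.1). Counting only values of 10 TPM or more, the shares were 50% in GMP (23 cells, 34.9 to 65.1) and 22.2% in CD11b+ GMP-P (10 cells, 11.2 to 37.1). Among cells with a like number of genes the means were 2.42 ± 2.96 (n = 26) and 2.49 ± 3.29 (n = 21), so the difference turned to 0.069. In that range the commonly detected genes still had a median difference of -0.44. The range also lies above the median gene number (3449) of a cluster of 23 CD11b+ GMP-P cells led by Ngp and Ltf, so gene number and the kinds of cells kept changed together, and the part of either was not tested. Of its 31-base words, 9.13% occur in Twf1, an actin-binding gene next to it with means of 7.06 ± 2.85 (GMP) and 4.37 ± 3.85 (CD11b+ GMP-P). Twf1 was found in all 30 GMP cells with Irak4 and 12 of the 16 without it, and in 16 of 21 and 20 of 24 in CD11b+ GMP-P. Their levels were nearly unrelated across cells (Spearman 0.018 over 46 and 0.10 over 45 cells, as a description).

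Traf6, the ubiquitin ligase downstream of the kinases, had a share of 34.8% in GMP (16 cells, 21.4 to 50.2) and 17.8% in CD11b+ GMP-P (8 cells, 8.0 to 32.1). It ranged from 0 to 6.75 and from 0 to 6.39, with medians of 0. Means were 0.91 ± 1.86 and 0.56 ± 1.60, a difference of -0.35. Most of the gap in share came from low values, since 6 and 5 cells reached 10 TPM. In the range of like gene numbers the shares were 23.1% and 19%, where the kinds of cells kept changed as well, and the part of either was not tested.

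A single cell held few of the 10 genes at once. GMP cells had from 0 to 6 members above 0, with a mean of 2.61 ± 1.32, and CD11b+ GMP-P cells also had from 0 to 6, with a mean of 1.96 ± 1.48. All 10 were at 0 in 2 cells of GMP and 8 of CD11b+ GMP-P. The number of members followed the number of all genes in a cell, at Spearman 0.55 over the 46 GMP cells and 0.39 over the 45 CD11b+ GMP-P cells, given as a description of cells that share a sort. For the 5 receptor genes alone these values were 0.075 and 0.21. At least 1 receptor gene was above 0 in 20 GMP cells and 20 CD11b+ GMP-P cells, and no cell had more than 2. The signaling trio was complete in 8 and 5 cells.

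**Figure D3:**
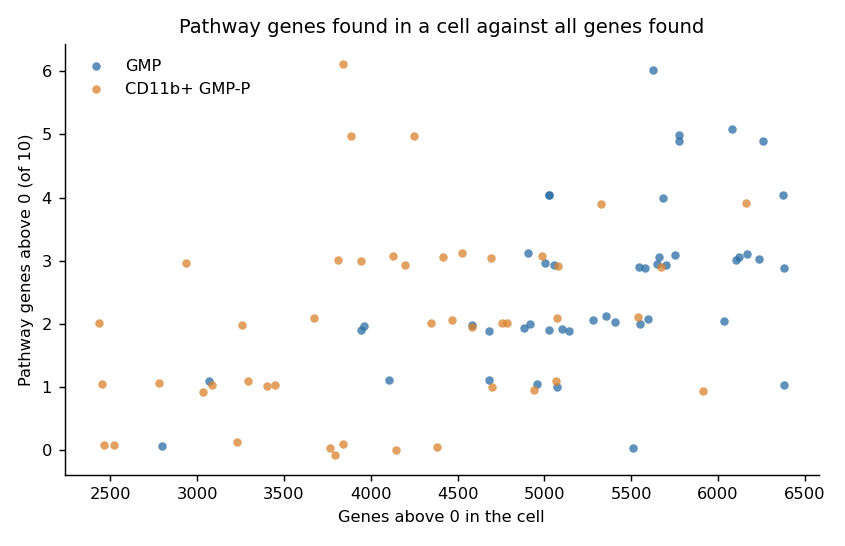
Number of the 10 pathway genes above 0 in a cell (y axis, with small vertical scatter) against the number of all genes above 0 (x axis), 1 point per cell, GMP in blue and CD11b+ GMP-P in orange. No pathway gene is found in 2 blue and 8 orange points, and the largest number in either is 6.

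Genes whose products act together were not always found together. Of the 10 GMP cells with Tlr4, 6 held Cd14 (60%), against 7 of the 36 without Tlr4 (19.4%). In CD11b+ GMP-P, 3 of 10 cells with Tlr4 held Cd14 (30%), against 6 of 35 (17.1%). At 10 TPM or more, 2 of 4 GMP cells with Tlr4 and 9 of 42 without it held Cd14, and 1 of 6 and 4 of 39 CD11b+ GMP-P cells. GMP cells with Tlr4 also had more genes above 0 (a median of 5699.5 against 5318.5), and the part of this in the overlap was not tested.

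Ly96 showed no such overlap with Tlr4. It was found in 1 of the 10 GMP cells with Tlr4 and 8 of the 36 without, and in 1 of 10 and 1 of 35 CD11b+ GMP-P cells. Tlr4, Ly96 and Cd14, the parts of the lipopolysaccharide receptor, were above 0 together in 1 GMP cell and no CD11b+ GMP-P cell. For the lipopeptide receptor, Tlr2 and Tlr6 met in 1 GMP cell and no CD11b+ GMP-P cell. Tlr2 and Cd14 met in 2 cells of each population. Tlr2 and Tlr1, a pair looked at after the values were seen, met in 1 cell of each.

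The share of cells with Myd88 was lower beside a receptor gene in GMP and higher in CD11b+ GMP-P when all values above 0 counted, and higher in both at 10 TPM or more. Myd88 was above 0 in 11 of 20 GMP cells with any of the 5 receptors (55%) and in 16 of 26 without (61.5%). In CD11b+ GMP-P the counts were 12 of 20 (60%) and 11 of 25 (44%). At 10 TPM or more they were 6 of 9 and 16 of 37 GMP cells, and 8 of 12 (66.7%) and 10 of 33 (30.3%) CD11b+ GMP-P cells. CD11b+ GMP-P cells with a receptor also had more genes above 0, a median of 4443 against 3841, and 4555.5 against 3942 at 10 TPM. In GMP these medians were 5478 against 5435, and 5029 against 5547 at 10 TPM. The part of gene number in the overlap was not tested. All 3 signaling genes were at 0 in 2 of the 20 GMP cells and 1 of the 20 CD11b+ GMP-P cells with a receptor. Myd88 and Irak4, also paired after the values were seen, were together in 20 GMP cells and 12 CD11b+ GMP-P cells.

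Each population was clustered alone, without the members and the other pathway genes. The 45 CD11b+ GMP-P cells divided into 23 cells led by the late neutrophil granule genes Ngp, Ltf and Camp and 22 cells led by Ctsg, Srgn and Elane of earlier granules. The 23 cells had fewer genes above 0, a median of 3449 against 4768. Traf6 was found in 1 of the 23 and 7 of the 22, Tlr6 in 1 and 3, Cd14 in 3 and 6, and Ly96 in 0 and 2. Tlr4 was found in 5 of each. Irak4 averaged 1.07 ± 2.03 in the 23 cells and 2.56 ± 3.15 in the 22, and Myd88 averaged 2.33 ± 3.65 and 3.65 ± 3.58. With 1000 in place of 500 variable genes the late granule cluster shrank to 14 cells, none of which held Cd14, Ly96, Tlr6 or Traf6, while 3 held Tlr4 and 2 held Tlr2. The other 31 cells held Cd14 in 9 and Traf6 in 8. The part of gene number in these values was not tested.

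The 46 GMP cells divided into 42 cells and a cluster of 4 led by the mast cell and basophil genes Cpa3, Ms4a2 and Mcpt8. In those 4 cells Tlr2 was found in 1, Ly96 in 1, Myd88 in 2 and Irak4 in 1, and the other 6 members were at 0. With 1000 variable genes the split was 34 and 12 cells instead. The median number of genes of the 4 was 3504.5, against 5550 in the 42. All 13 GMP cells with Cd14, all 10 with Tlr4 and all 16 with Traf6 lay among the 42.

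**Figure D4:**
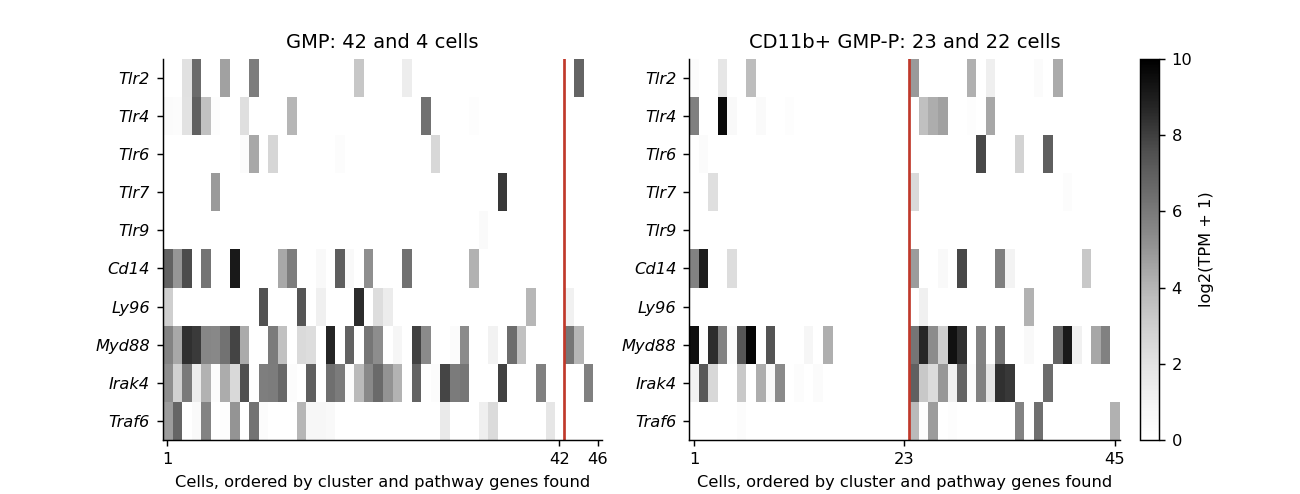
Levels of the 10 genes (rows) in each cell (columns) as log2(TPM + 1), from white at 0 to black at 10, with the 46 cells of GMP to the left of the 45 of CD11b+ GMP-P. Cells are ordered by cluster and then by the number of members found, and the red lines divide 42 from 4 GMP cells and 23 from 22 CD11b+ GMP-P cells, where Traf6 is in 1 of the 23 and 7 of the 22.

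Irf8, the transcription factor gene of which these mice carry 1 minus allele, was set beside the signaling genes after the values were seen. In GMP it averaged 7.26 ± 2.74 in the 27 cells with Myd88 and 4.88 ± 3.94 in the 19 without, and 7.85 ± 2.25 in the 16 cells with Traf6 and 5.43 ± 3.72 in the 30 without. In CD11b+ GMP-P the Irf8 means were 4.50 ± 4.33 and 2.42 ± 3.63 for cells with and without Myd88, and 5.69 ± 4.02 and 3.01 ± 4.0 for Traf6. For Irak4 the Irf8 means with and without it were 6.81 ± 3.26 and 5.26 ± 3.70 in GMP and 4.76 ± 4.19 and 2.37 ± 3.73 in CD11b+ GMP-P. In all 6 comparisons the Irf8 mean with the gene was higher, with cells that overlapped widely. Irf8 was picked from several genes compared in this way. The Elane mean was also higher in all 6, by 0.69 to 3.39. Within CD11b+ GMP-P, Irf8 averaged 1.04 ± 2.41 in the late granule cluster of 23 cells and 6.04 ± 3.95 in the other 22. The part of these clusters in the Irf8 differences was not tested. Irf8 itself followed the number of genes above 0 (Spearman 0.32 over 46 and 0.45 over 45 cells), and the part of this in the differences was not tested. The Irf8 mean with Tlr4 minus that without was -0.024 (GMP) and 2.01 (CD11b+ GMP-P), and for Cd14 it was -0.56 in both.

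Values of F13a1 and Camp beside members were also taken after the values were seen, and those given here were picked from several. F13a1, a gene of monocytes, averaged 7.32 ± 3.24 in GMP cells with Traf6 and 4.25 ± 3.86 in those without. The GMP cells with Traf6 had a median of 5692 genes above 0, against 5120.5 without, and the part of this was not tested. In CD11b+ GMP-P the F13a1 means with and without Traf6 were 2.70 ± 2.77 and 1.22 ± 2.66. With Tlr4 the order was the opposite in GMP only, where the difference in F13a1 between cells with and without Tlr4 was -1.75. In CD11b+ GMP-P that difference was 0.35. Camp, the late granule gene, averaged 5.56 ± 4.36 in the 8 CD11b+ GMP-P cells with Traf6 and 12.52 ± 4.73 in the 37 without. This overlaps with the cluster split above, since 7 of those 8 cells lay in the cluster of 22 and 1 in the cluster of 23.

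Other genes of the pathway were taken from lists chosen by role, 65 genes in all, of which 47 were measured. Of these, 18 were lower in CD11b+ GMP-P, 0 were higher and 29 stayed within 1 of GMP, with a median of -0.69. The background for all measured genes was 29.9% lower and a median of -0.50. The accessory and chaperone genes had the lowest median of the 6 lists.

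In the accessory and chaperone list 5 of 6 measured genes were lower, with a median of -1.94. The share lower was 29.9% among all measured genes and 51.8% among the commonly detected genes, whose median was -1.05. Cnpy3 and Cnpy4, whose products bind Toll-like receptors on their way to the surface, had GMP means of 4.06 ± 3.06 and 5.62 ± 3.44, with 1.30 ± 2.31 and 2.98 ± 3.70 for CD11b+ GMP-P. Ly86, which encodes MD-1, a relative of MD-2, differed by -2.29. Hsp90b1, the endoplasmic reticulum chaperone of these receptors, averaged 8.56 ± 1.87 and 6.97 ± 2.72. Unc93b1, which carries TLR7 and TLR9 to endosomes, was not among the 4 largest differences of its list and was named after its values were seen. Unc93b1 was above 0 in 41 of 46 and 35 of 45 cells, while Tlr7 was found in 2 and 3 cells and Tlr9 in 1 and 0. Among the 8 other receptor genes only Tlr1, at -1.17, and Tlr8 were measured, and Tlr3, Tlr11 and Cd180 were at 0 in every cell.

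Of 9 measured adaptor and IRAK genes 2 were lower, no more than the 29.9% of all measured genes. Irak1, a kinase activated by IRAK4, averaged 5.64 ± 1.93 and 4.07 ± 2.44 and was above 0 in 46 and 44 cells, while Ticam2, the bridging adaptor of TLR4, differed by -1.07. Of 16 measured downstream kinase and ubiquitin genes 5 were lower, close to that background. They included Ube2v1 at -2.34 and Ube2n at -1.63, the subunits of the ubiquitin-conjugating enzyme used by TRAF6, as well as the kinases Tbk1 at -1.87 and Ikbkb at -1.83. Of 10 measured NF-kB and interferon regulatory factor genes 4 were lower, namely Nfkb1 (-1.78), Nfkbib (-1.54), Irf3 (-1.42) and Rela (-1.15). That list's median was -0.084, since the other 6 lay between -0.22 and 0.62.

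Of 12 inflammatory genes that the pathway is known to induce, 4 were measured, beside 10030 of all 23956 genes. Ccl3 was the 1 of these 4 past the size of 1, at 2.55 ± 3.72 in GMP and 1.44 ± 2.94 in CD11b+ GMP-P. Among all measured genes 29.9% were lower. Tnf was above 0 in 8 cells of each population. Il1b, Il1a, Il12b, Ccl5 and Ptgs2 were at 0 in every cell.

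**Figure D5:**
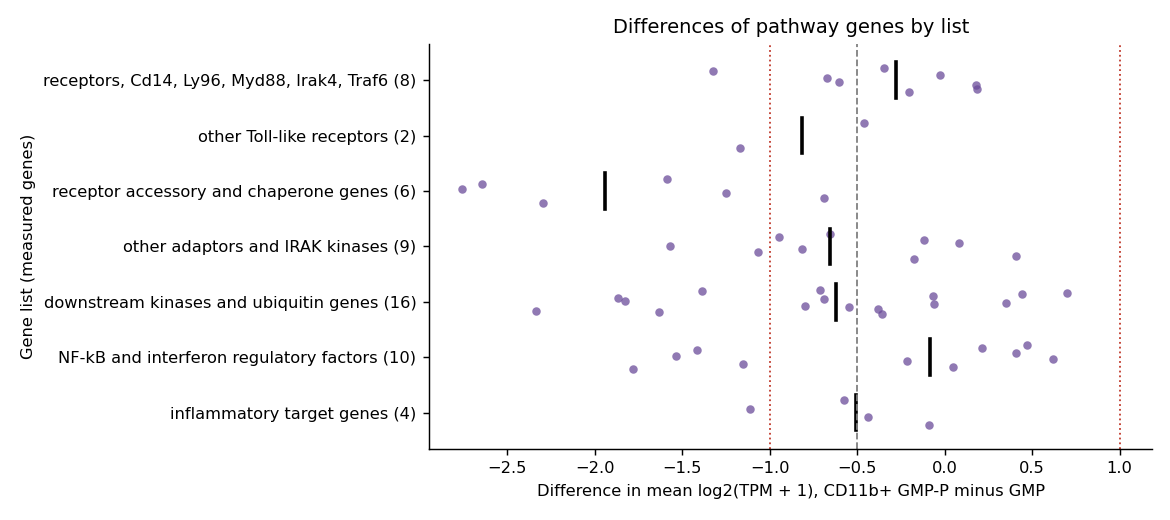
Difference in mean log2(TPM + 1), CD11b+ GMP-P minus GMP (x axis), of each measured gene (points), by list (y axis, number of genes in parentheses), with black bars for list medians, dotted lines at -1 and 1, and a dashed line at the median of all measured genes (-0.50). The top row holds the 8 measured members, with Irak4 alone beyond -1, and the accessory and chaperone list has a median of -1.94.

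Macrophage markers and most B lymphocyte markers were scarce, while monocyte markers were not. Of 9 macrophage markers 7 were at 0 in every cell, C1qa, C1qb and C1qc among them, and the highest was Vcam1 at 0.84 ± 2.28 in GMP and 1.84 ± 2.88 in CD11b+ GMP-P. The list summed to between 0 and 1574 TPM in GMP and between 0 and 619 TPM in CD11b+ GMP-P, with medians of 0. In cells with Tlr2 it summed to 0 in all 7 of GMP and to between 0 and 560 TPM in the 8 of CD11b+ GMP-P. In cells with Tlr4 it reached 144 TPM in GMP and 560 TPM in CD11b+ GMP-P. The median was 4.42 TPM in the 10 CD11b+ GMP-P cells with Tlr4, and 0 in the other sets of cells with Tlr2 or Tlr4. It was also 0 in the cells without Tlr2 and in those without Tlr4. Of 6 B lymphocyte markers all but Cd79b were at 0 in every cell, and the list summed to between 0 and 1143 TPM and between 0 and 554 TPM. Of 7 plasmacytoid dendritic cell markers 2 were at 0 in every cell and Tcf4 had the highest mean over all cells (3.32 ± 2.36 and 1.44 ± 1.90). That list had medians of 64.4 and 3.4 TPM. Of the other lists, the highest gene was Nkg7 for T and NK lymphocytes (10.64 ± 2.34 and 7.79 ± 4.64), with 3 of 6 markers at 0 in every cell. It was Mcpt8 for basophils and mast cells (2.79 ± 4.05 and 0.57 ± 1.95, above 0 in 21 and 6 cells), with 0 of 5 at 0 throughout. For conventional dendritic cells it was Flt3 (0.37 ± 1.33 and 0.0039 ± 0.026), and for erythroid cells and megakaryocytes Itga2b (0.33 ± 1.60 and 0.13 ± 0.89), with 2 of 6 and 5 of 7 markers at 0 in every cell. Monocyte markers were led by Ly6c2 at 11.60 ± 3.11 and 11.52 ± 2.19 and were all found in some cells, with list medians of 8619 and 3526 TPM. In GMP cells with Cd14 the monocyte list had a median of 9410 TPM, against 6829 without, and the ranges overlapped. This sum leans on Ly6c2, the highest gene of the list. Irf8, Csf1r and F13a1 of the same list were lower in GMP cells with Cd14 than in those without, by -0.56, -0.43 and -0.39. For Tlr2 the list medians in GMP had the other order, 5615 TPM with it and 9016 without.

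The genes most alike to a member across cells were named for the 4 members with a share of 20% or more in both populations. They had the highest mean of the 2 within-population Spearman values among 5316 genes, so a high value is in part a result of taking the largest of many. For Tlr4 they included Cars and Sqstm1 (means of 0.37 and 0.36), and for Cd14 they were Rpia, Mrpl47 and Tfec (0.40, 0.39 and 0.39). For Myd88 they were Fech, Stk24 and Mettl23 (0.43, 0.41 and 0.39), and for Irak4 they were Arhgap15, Ubr4 and D6Wsu163e (0.40, 0.37 and 0.37). All are weak and were taken over 46 and 45 cells that share a sort and vary in depth, and no member was among them.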

How the data were processed

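Single cells were captured on a Fluidigm C1 chip, and SMARTer cDNA was made into Nextera XT libraries, per the labels' protocols. The authors deposited 1 table of log2 values, and returned to linear scale after subtraction of 1 each cell had a total from 999999 to 1000076, so they are log2(TPM + 1). RSEM, without a version, and build mm9 are named in the submitters' processing notes, while aligner and annotation are left unnamed: not given in the sources used here. Depth cannot be had from TPM, and genes above 0 per cell stand in for it; 80.3% of values were 0. No 2 cells had identical values (highest correlation 0.736). No cell was left out, and no doublet caller was run.

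Means and SDs over cells and exact Clopper-Pearson intervals were computed with Python 3.11.15, pandas 2.3.3 and scipy 1.17.1. Measured genes had a share of 10% or more of cells above 0 in one population or the other. Clusters used Ward linkage on 10 principal components of 500 variable genes above 0 in at least 20% of cells, with 2 to 5 clusters by silhouette (scikit-learn 1.9.0). The members and lists were chosen with earlier results of these data known. Besides all 10 members, up to 4 genes past the size of 1 were named per pathway list, and of each marker list the highest. Calculations were tested on simulated data. Words of 31 bases and promoters came from GENCODE M21 and RefSeq on GRCm38, not the build of the files, and so serve as descriptions. Of the genes most alike to a member, 1 is not reported here.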

Additional observations from a re-analysis of the deposited data

How the results depend on the processing

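Depth per cell is unknown, so a share of cells above 0 cannot separate fewer transcripts from fewer reads, and with 1 sample per population differences have no replicate check. Of 60 shares recomputed at 1 TPM, at 10 TPM or in the shared range of genes detected, 52 stayed inside the interval of the reported value. Of 90 recomputed member differences, including 10 without each member's highest cells that were added after seeing the data, 79 kept their call. Irak4 was -0.64 with a pseudocount of 10, -0.49 as the log2 ratio of mean TPM, -0.93 with median-of-ratios scaling and 0.069 in the shared range, where its direction turned. With the 50 highest genes left out, Irak4 was -1.26 and 18 other pathway genes were lower. Of members, 2 were lower with a pseudocount of 0.1 and with the ratio of mean TPM, and 0 with a pseudocount of 10, median of ratios or the shared range, and 3 were higher with the ratio of mean TPM. The ratio gave -1.41 for Tlr2, 1.85 for Tlr4, 2.39 for Tlr6, -2.74 for Tlr7, -3.63 for Ly96 and 1.03 for Myd88. Without the highest cell of each population these were -1.23, 0.18, 1.70, -0.58, -3.17 and 1.01, and 1 cell held 91.2% of the Tlr7 TPM of GMP. The smallest cluster was 4 cells in GMP but 22 cells in CD11b+ GMP-P. Leaving out both set 42 GMP cells against the 23 late granule cells of CD11b+ GMP-P. This gave the members a median of -0.78, while commonly detected genes went to -1.76. Other pathway genes that were lower numbered 6 with a pseudocount of 10, 11 with the ratio and 9 with median of ratios, and those that were higher 1, 7 and 1 with a pseudocount of 0.1, the ratio and median of ratios. Over all alternatives, 12.5% to 45.6% of all measured genes were lower and 0.897% to 10.3% higher, and the median of commonly detected genes ranged from -1.76 to -0.44. The cause of these changes was not tested. With the ratio 10.3% of measured genes were higher, against 2.45% in the reported setting. No paired analysis was possible because cell numbers do not pair the populations.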
